A study of Mus musculus with 16 samples.

Results

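The insulin-like growth factor (IGF) genes described here are 10 mouse genes: 6 IGF binding proteins (Igfbp2, Igfbp3, Igfbp4, Igfbp5, Igfbp6 and Igfbp7), the receptors Igf1r and Igf2r, and the insulin receptor substrates Irs1 and Irs2. They were chosen by name, as members of 1 pathway, from the 32989 genes of the count table, and all 10 were found in it. The list was drawn up with results for these libraries already known, among them the higher Igfbp3 level after treatment in CD34+ cells, so that difference is given as a description. Of the 10 genes, 9 had a mean count of at least 5 and were tested among the 19049 genes that met this limit, Igfbp5 being the exception. Hair follicle stem cell (HFSC) organoids, 3D cultures of mouse epidermal cells that hold stem cells and their progeny side by side, were grown for 2 weeks from 4 C57BL/6J mice. N1-acetylspermidine (N1-AcSpd), a polyamine that carries an acetyl group, was given for 72 h or left out, after which α6+/CD34+ HFSCs were separated from α6+/CD34− progenitors by sorting. Each mouse gave 1 library to each of the 4 groups, which makes 16 libraries of 3′ RNA-seq with unique molecular identifiers (UMIs), tags that mark single RNA molecules. All cells, controls included, came from epidermis taken in telogen, the resting phase of the hair cycle, from mice of both sexes. The titles of the untreated libraries carry WT (wild type), and those of the treated libraries carry N1AcSpd in its place. Both kinds came from the same 4 mice, and no other genotype is named. The paper gives ranges of postnatal age for such mice. The labels give neither the age nor the sex of a given mouse, nor the concentration of N1-AcSpd.

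IGF1 and IGF2 are secreted ligands that bind the receptor tyrosine kinase IGF1R, which passes the signal on through the docking proteins IRS1 and IRS2 to PI3K and AKT. IGF2R takes up IGF2 and carries it to lysosomes, and so acts as a sink for the ligand. The IGF binding proteins hold the ligands outside the cell, where they can keep them from the receptor or carry them to it, and several also act without a ligand; IGFBP7 binds IGFs weakly. In skin, IGF1 comes mainly from dermal fibroblasts and the dermal papilla and acts on keratinocytes. The organoid medium of all 4 groups contained insulin and serum, so ligand could reach the cells from outside whatever their own transcription. The paper gives no IGF level of the medium.

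Library totals ran from 15480075 to 29074855 UMIs. The sort was visible in the counts, with Cd34 at 43.4 to 57.8 CPM (UMI counts scaled to a common library total) in untreated CD34+ libraries and 3.05 to 3.26 CPM in untreated CD34− libraries, and the bulge keratin gene Krt15 at 320 to 447 CPM against 35.7 to 42.7 CPM. Of 10 bulge and sorting genes, 8 differed between the fractions in untreated cells, 6 being higher and 2 lower in CD34+ cells. Genes of differentiated keratinocytes went the other way, 7 of 7 being lower in CD34+ cells with and without N1-AcSpd; their summed level was 1030 to 1560 CPM in the 8 CD34− libraries and 295 to 400 CPM in the 8 CD34+ libraries. The summed level of 7 fibroblast genes was 0.516 to 1.6 CPM in CD34− and 0.171 to 0.713 CPM in CD34+ libraries; of the 2 tested, Col1a2 (1 to 22 UMIs in a library) was called lower in CD34+ cells in both states (4.56-fold and 4.75-fold; edgeR, adjusted p = 0.0381 and 0.026), with overlap. The summed level of 5 melanocyte genes was 9.39 to 12.6 CPM and that of 5 immune genes 1.41 to 4.99 CPM. Most of the melanocyte sum was Pmel (8.84 to 11.7 CPM), with Dct, Tyrp1, Mlana and Tyr each at most 0.868 CPM in a library. Of 2 endothelial genes in the table, Tek reached at most 0.274 CPM, while Pecam1 was counted at 1687 to 2055 CPM in every library; the source of these Pecam1 tags is unclear, and they are not read as endothelial RNA. The part that differentiated cells or fibroblasts in the CD34− fraction play in the differences between fractions given next was not tested.

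All 10 genes matched by symbol to promoters in RefSeq (GRCm38.p6). Those of the 4 binding proteins called between the fractions under N1-AcSpd are shown. Of these, Igfbp2 and Igfbp3 were lower and Igfbp4 and Igfbp7 higher in CD34+ cells. Igfbp6, called in untreated cells but not under N1-AcSpd, is not shown. Each is the 250 bases before the start, 5′ to 3′ on the gene's strand, with matches on either strand to 5 searched motifs in capitals, which are the TATA box TATAAA, the GC box GGGCGG, the AP-1 site TGANTCA, the TEAD site GGAATG and the FOXO site TGTTTAC. For Igfbp2 the first of 2 listed starts was used. No GENCODE transcript holds this start, nor the one shown for Igfbp7. The Igfbp2 window used lies before the GENCODE start of the gene, and that of the other start lies inside the gene. The other start is held by 1 transcript, and its window has 0 GC boxes, 1 AP-1 match and a GC content of 56.4%.
Igfbp2, chr1:72824230-72824479, plus strand: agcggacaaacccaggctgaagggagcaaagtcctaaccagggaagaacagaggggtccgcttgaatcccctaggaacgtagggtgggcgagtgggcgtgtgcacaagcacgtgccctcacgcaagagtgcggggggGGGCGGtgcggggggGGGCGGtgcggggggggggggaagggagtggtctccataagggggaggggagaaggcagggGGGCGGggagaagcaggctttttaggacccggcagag
Igfbp3, chr11:7213924-7214173, minus strand: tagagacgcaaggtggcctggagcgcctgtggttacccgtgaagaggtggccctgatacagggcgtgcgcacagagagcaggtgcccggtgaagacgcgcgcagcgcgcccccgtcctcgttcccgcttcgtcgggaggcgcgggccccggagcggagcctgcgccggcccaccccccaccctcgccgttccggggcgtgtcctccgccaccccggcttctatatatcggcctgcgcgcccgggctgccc
Igfbp4, chr11:99040994-99041243, plus strand: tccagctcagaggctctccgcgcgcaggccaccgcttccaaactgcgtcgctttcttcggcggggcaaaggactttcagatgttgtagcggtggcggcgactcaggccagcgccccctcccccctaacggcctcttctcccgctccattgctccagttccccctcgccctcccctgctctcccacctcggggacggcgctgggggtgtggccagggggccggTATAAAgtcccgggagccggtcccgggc
Igfbp7, chr5:77408046-77408295, minus strand: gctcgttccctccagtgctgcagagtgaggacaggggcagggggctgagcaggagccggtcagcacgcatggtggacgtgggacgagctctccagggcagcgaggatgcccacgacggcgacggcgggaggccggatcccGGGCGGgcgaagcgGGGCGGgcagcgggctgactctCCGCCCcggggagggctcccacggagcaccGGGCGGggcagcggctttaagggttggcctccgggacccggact

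The capitals mark 3 GC boxes in the Igfbp2 window and 4 in that of Igfbp7, 1 TATA box for Igfbp4, and none of the 5 motifs for Igfbp3. Both genes that were lower in CD34+ cells therefore differed in these letters, as did both that were higher. The GC content was 67.2% for Igfbp2, 73.2% for Igfbp3, 69.2% for Igfbp4 and 74.0% for Igfbp7. Over all 32851 mouse promoter windows of this length, 32.7% held a GC box, 12.4% a TATA box, 12.6% the TEAD letters, 6.75% the AP-1 letters and 3.17% the FOXO letters. A match describes letters only and says nothing of binding.

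Igfbp2, a binding protein that is mostly inhibitory towards IGFs in culture, showed the largest fitted difference between the fractions among the 9 tested genes, being about 5-fold lower in CD34+ cells. In untreated CD34− libraries of mice 1 to 4 it was at 2.58, 2.68, 2.56 and 1.71 CPM, and in the CD34+ libraries of the same mice at 0.512, 0.329, 0.759 and 0.308 CPM. The highest CD34+ library was thus below the lowest CD34− library, in each mouse and across mice. After N1-AcSpd, Igfbp2 was at 2.68, 2.88, 4.22 and 2.75 CPM in CD34− cells and at 0.743, 0.512, 0.614 and 0.587 CPM in CD34+ cells, and the fractions again lay apart. The level was 4.95-fold lower in untreated CD34+ cells (log2 fold change -2.31, SE 0.271; edgeR quasi-likelihood test, adjusted p = 2.27e-05) and 5.03-fold lower under N1-AcSpd (log2 fold change -2.33, SE 0.265; adjusted p = 1.38e-05). Counts behind the low side were small, 6 to 20 UMIs in a CD34+ library against 38 to 111 in a CD34− library.

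Igfbp3, the main carrier of IGFs in serum and a secreted product of keratinocytes of the basal epidermis, was also lower in CD34+ cells. In mice 1 to 4, untreated CD34− libraries stood at 8.39, 10.9, 13.2 and 12.2 CPM, and untreated CD34+ libraries 3.98, 3.90, 5.04 and 4.11 CPM. The N1-AcSpd libraries held 14.9, 17.9, 15.9 and 22.0 CPM in CD34− cells and 7.61, 8.08, 8.41 and 6.75 CPM in CD34+ cells. From low to high the groups stood in the order untreated CD34+, N1-AcSpd CD34+, untreated CD34− and N1-AcSpd CD34−, and of neighbours in this order the middle ones alone overlapped, at 8.39 to 8.41 CPM. CD34+ cells had a 2.62-fold lower level in the untreated state (log2 fold change -1.39, SE 0.152; edgeR, adjusted p = 1.14e-05) and a 2.29-fold lower level under N1-AcSpd (log2 fold change -1.20, SE 0.148; adjusted p = 3.08e-05). Igfbp2 and Igfbp3 passed the test between fractions in each of the 20 fits that left out 1 library or 1 mouse and in each of the 7 other processing alternatives.

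**Figure D1:**
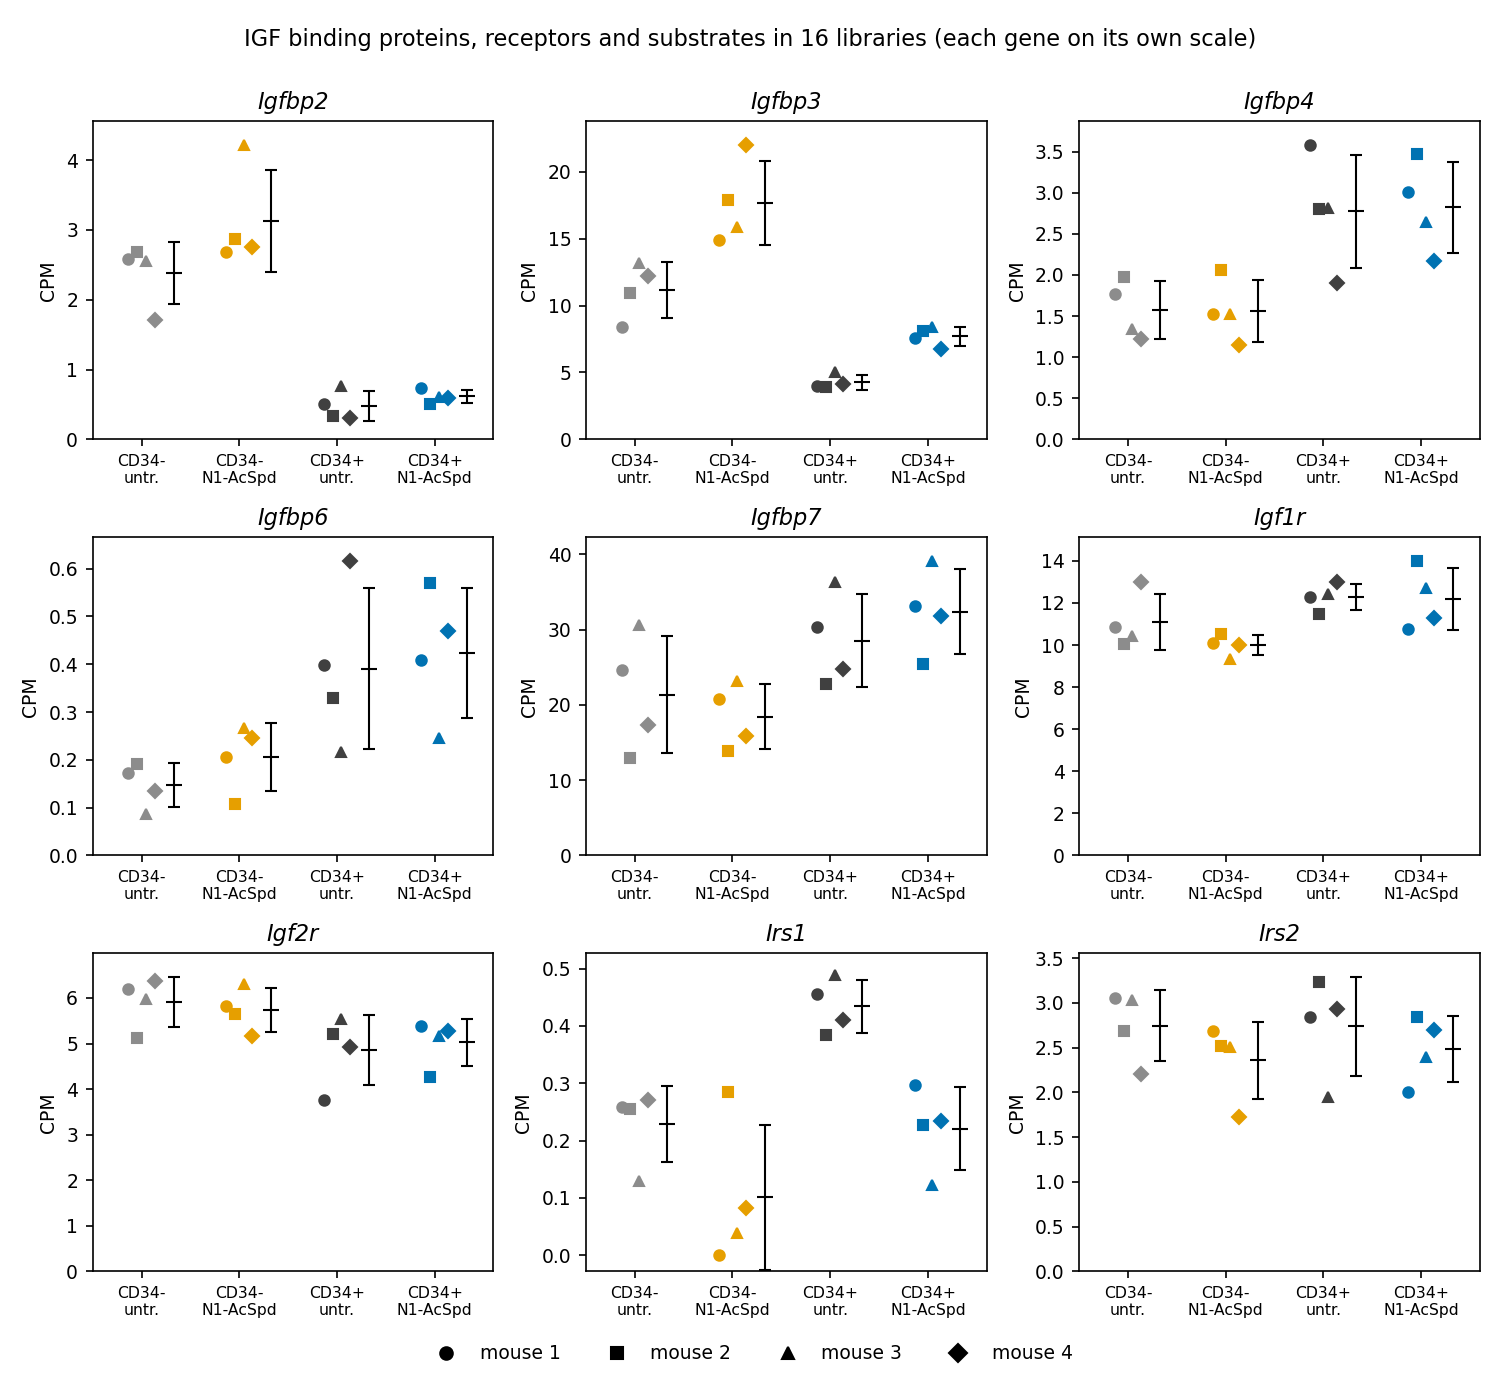
Level of the 9 tested genes in each library in CPM (y axis, each gene on its own scale) by sorted fraction and treatment (x axis); symbols mark mice 1 to 4, and the bar beside each group is its mean and SD (n = 4). Igfbp2 and Igfbp3 lie higher in the CD34− groups, Igfbp4 lies higher in the CD34+ groups, and Igf2r and Irs2 overlap between fractions.

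Igfbp4 and Igfbp6 ran opposite to these genes. Igfbp4, an inhibitory binding protein that the protease PAPPA cleaves, was at 1.76, 1.98, 1.34 and 1.22 CPM in untreated CD34− libraries of mice 1 to 4 and at 3.59, 2.80, 2.82 and 1.90 CPM in untreated CD34+ libraries. Mouse 4 gave the lowest Igfbp4 value in each of the 4 groups, and its CD34+ library overlapped the CD34− range, but CD34+ was the higher fraction within every mouse. Under N1-AcSpd the values were 1.53, 2.06, 1.52 and 1.15 CPM in CD34− and 3.01, 3.47, 2.64 and 2.17 CPM in CD34+ libraries, where the fractions lay apart. Igfbp4 was 1.76-fold higher in untreated CD34+ cells (log2 fold change 0.82, SE 0.230; edgeR, adjusted p = 0.0144) and 1.80-fold higher under N1-AcSpd (0.85, SE 0.228; adjusted p = 0.0103). Without mouse 1 the adjusted p became 0.0956 and 0.0642, and without mouse 3 it became 0.115 and 0.0642.

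Igfbp6, a binding protein that prefers IGF2, was counted at only 2 to 12 UMIs in a library. In untreated cells of mice 1 to 4 it was at 0.172, 0.192, 0.0866 and 0.135 CPM in CD34− and at 0.398, 0.329, 0.217 and 0.617 CPM in CD34+ libraries, without overlap. With N1-AcSpd it was at 0.206, 0.106, 0.266 and 0.246 CPM in CD34− and at 0.409, 0.569, 0.245 and 0.470 CPM in CD34+ libraries, and the fractions overlapped through mouse 3. The fitted difference was 2.63-fold in untreated cells (log2 fold change 1.40, SE 0.405; edgeR, adjusted p = 0.0171), and the log2 fold change under N1-AcSpd was 1.02 (SE 0.387; adjusted p = 0.0577). The untreated call was lost in DESeq2 (adjusted p = 0.0537) and without mouse 1 (0.086), mouse 4 (0.16), the CD34− library of mouse 3 (0.0562) or the CD34+ library of mouse 4 (0.107). Under N1-AcSpd the threshold was passed with unscaled library totals (0.0366) and without mouse 3 (0.0281), its treated (0.0329) or its untreated (0.0445) CD34+ library, or that untreated library of mouse 4 (0.0425).

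Igfbp7, a secreted matrix-associated protein of the same fold, separated the mice as well as the fractions. Mice 1 to 4 gave 24.6, 12.9, 30.6 and 17.3 CPM in untreated CD34− cells and 30.4, 22.7, 36.4 and 24.7 CPM in untreated CD34+ cells. With N1-AcSpd they gave 20.7, 13.9, 23.2 and 15.9 CPM in CD34− and 33.2, 25.4, 39.2 and 31.8 CPM in CD34+ cells. In all 4 groups the mice stood in the same order, mouse 3 the highest, then mice 1 and 4, and mouse 2 the lowest. CD34+ was the higher fraction in every mouse, by 1.19 to 1.76 times in untreated cells and by 1.60 to 2.00 times under N1-AcSpd. In the fit that ignores the mice the untreated difference did not pass (log2 fold change 0.42, SE 0.251; edgeR, adjusted p = 0.24), whereas with the mouse as a replicate block it did (0.46, adjusted p = 0.00362). The N1-AcSpd difference passed (0.81, SE 0.252; adjusted p = 0.023), but not without mouse 1 (0.0907), mouse 4 (0.122), the treated CD34− libraries of mouse 2 (0.0699) or 4 (0.0633), or the treated CD34+ one of mouse 3 (0.0646). The 3′ end of Igfbp7 overlaps that of Polr2b on the other strand by 85 bases. Their counts differed in every library, but unequal totals cannot show whether tags in the overlap were shared. Gm34648, also on the other strand, overlaps Igfbp7 by 7085 bases and had 42 UMIs.

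Igfbp5, whose product is a matrix-bound binding protein, was close to absent from the counts, although its gene lies next to Igfbp2 on chromosome 1, with 5457 bases between them on opposite strands. It had 1 UMI in untreated CD34+ cells, that of mouse 1, and 2 UMIs in N1-AcSpd CD34+ cells, of mice 2 and 3. Both CD34− groups had 0 UMIs, which allows up to 0.0341 CPM in untreated and 0.028 CPM in N1-AcSpd CD34− cells. Igfbp5 was not tested.

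The receptors differed little between the fractions. Igf1r, the receptor that signals for both ligands, was at 10.8, 10.03, 10.4 and 13.0 CPM in untreated CD34− libraries of mice 1 to 4 and at 12.3, 11.5, 12.4 and 13.0 CPM in untreated CD34+ libraries. With N1-AcSpd it was at 10.1, 10.5, 9.35 and 10.01 CPM in CD34− and at 10.8, 14.0, 12.7 and 11.3 CPM in CD34+ libraries. The untreated fractions overlapped and differed by 0.15 on the log2 scale (SE 0.0899; 95% interval -0.04 to 0.34; edgeR, adjusted p = 0.237). The N1-AcSpd fractions lay apart, with a 1.22-fold higher level in CD34+ cells (0.29, SE 0.0899; adjusted p = 0.0248). This second call was lost without mouse 2 (0.0819), mouse 3 (0.189), the treated CD34+ libraries of mouse 2 (0.0574) or 3 (0.0602), or the treated CD34− one of mouse 3 (0.0709), and the untreated difference passed with unscaled library totals (0.0447) and when mouse 4 lost its untreated CD34− library (0.0454). The interaction, which sets the fraction difference under N1-AcSpd against that in untreated cells, was 0.14 for Igf1r (SE 0.127) and 0.40 for Igfbp7 (SE 0.355), both with an adjusted p of 1.0, so neither gene was shown to differ between the fractions more under N1-AcSpd than without it.

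Igf2r was at 6.19, 5.11, 5.98 and 6.36 CPM in untreated CD34− and at 3.76, 5.21, 5.53 and 4.93 CPM in untreated CD34+ libraries. Under N1-AcSpd it was at 5.82, 5.64, 6.31 and 5.17 CPM in CD34− and at 5.39, 4.27, 5.16 and 5.29 CPM in CD34+ libraries. The fractions overlapped in both states, and the log2 fold changes of -0.28 (SE 0.116; edgeR, adjusted p = 0.0801) and -0.19 (SE 0.116; adjusted p = 0.243) did not pass. The untreated one passed when mouse 2 lost its untreated CD34− library (0.0457) or mouse 3 its untreated CD34+ library (0.0424).

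Of the insulin receptor substrates, Irs2 was at 3.05, 2.68, 3.03 and 2.21 CPM in untreated CD34− libraries, 2.85, 3.24, 1.95 and 2.93 CPM in untreated CD34+ libraries, 2.68, 2.52, 2.51 and 1.72 CPM in N1-AcSpd CD34− libraries and 2.01, 2.85, 2.39 and 2.70 CPM in N1-AcSpd CD34+ libraries. All 4 groups overlapped, and CD34+ was the higher fraction in 2 of 4 mice in both states. The 95% interval of the log2 fold change between fractions was -0.39 to 0.38 in untreated and -0.32 to 0.46 in N1-AcSpd cells. Irs1 had 0 to 9 UMIs in a library, or 80 in all, and its mean count of 5.0 was just at the limit for testing. In untreated cells it was at 0.258, 0.256, 0.130 and 0.271 CPM in CD34− and at 0.455, 0.384, 0.488 and 0.411 CPM in CD34+ libraries. Under N1-AcSpd it was at 0.0, 0.284, 0.0380 and 0.0821 CPM in CD34− and at 0.297, 0.228, 0.123 and 0.235 CPM in CD34+ libraries. The untreated CD34+ libraries were above those of the other 3 groups, but neither difference between fractions passed (log2 fold changes of 0.92, SE 0.622, and 1.07, SE 0.660; edgeR, adjusted p = 0.305 and 0.248). The second passed without mouse 2 (0.0351) or its N1-AcSpd CD34− library (0.00971). These counts may not be those of Irs1 alone: the gene Gm9747, on the other strand, lies with all its 2822 bases inside the 3′ part of Irs1 and had 75 UMIs, the same number as Irs1 in 11 of 16 libraries and within 1 UMI in the others.

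Counted together, 4 of the 9 tested genes were called between fractions in untreated cells, Igfbp4 and Igfbp6 higher and Igfbp2 and Igfbp3 lower in CD34+ cells. Under N1-AcSpd 5 were called, Igfbp4, Igfbp7 and Igf1r higher and Igfbp2 and Igfbp3 lower. Of all 19049 tested genes, 32.1% and 33.3% were called in these comparisons, so calls were frequent in both. The median log2 fold change was 0.15 over the 9 genes against 0.02 over all tested genes in untreated cells, and 0.29 against -0.01 under N1-AcSpd. In bulk libraries such as these, fewer cells that express a gene and less RNA per cell cannot be told apart.

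**Figure D2:**
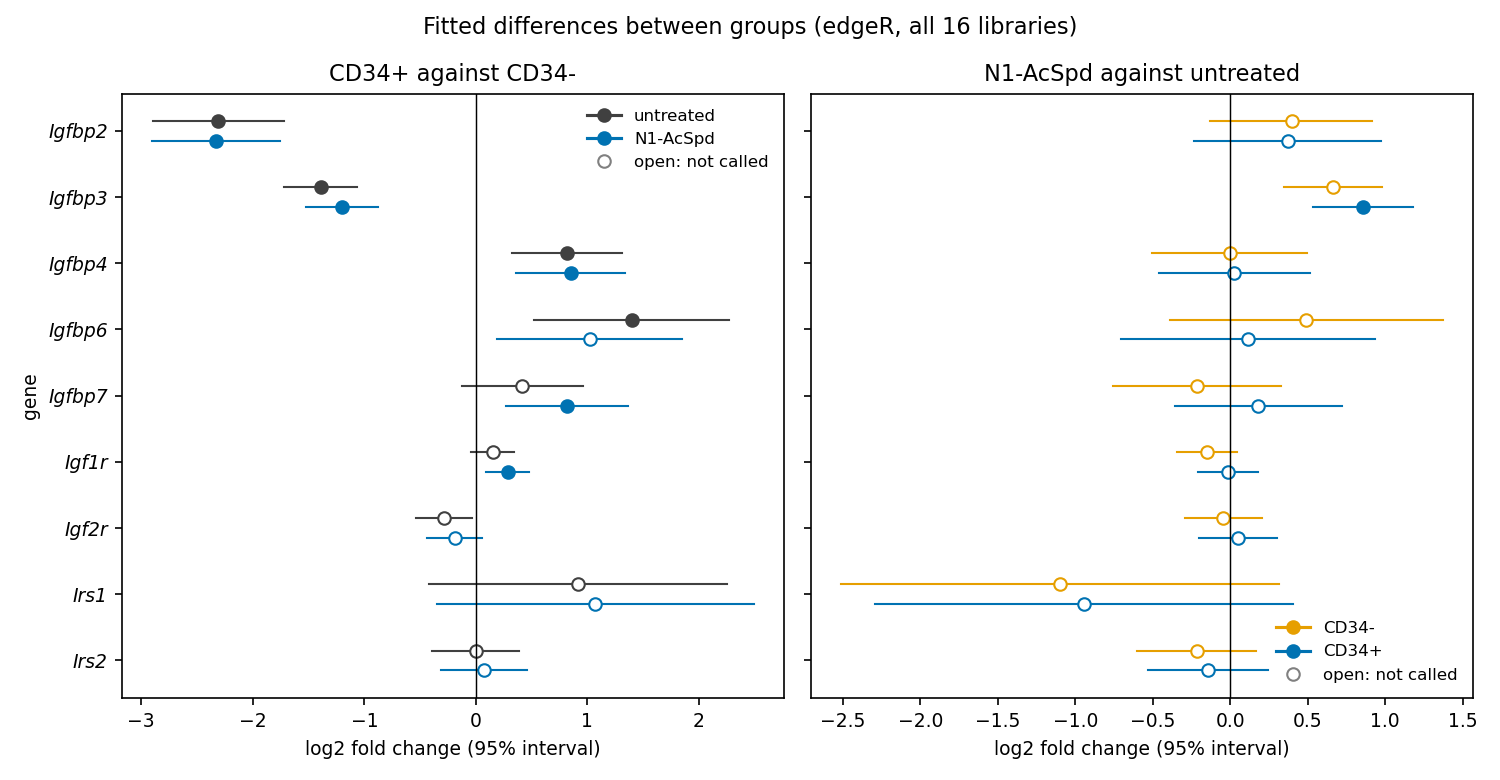
Fitted log2 fold changes (x axis) of the 9 tested genes (y axis) with 95% intervals from edgeR, between fractions on the left and between treatments on the right; filled points have an adjusted p under 0.05. Igfbp2 and Igfbp3 stand on the CD34− side and Igfbp4 on the CD34+ side with and without N1-AcSpd, and on the right only the Igfbp3 intervals leave out 0.

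The second question of the design was what 72 h of N1-AcSpd changed within a fraction. Igfbp3 was higher after N1-AcSpd in 4 of 4 mice in both fractions. In CD34− cells the ratio of the treated to the untreated library was 1.78, 1.64, 1.20 and 1.81 in mice 1 to 4, and in CD34+ cells it was 1.91, 2.08, 1.67 and 1.64. Treated and untreated libraries did not overlap in either fraction. The fitted log2 fold change was 0.86 in CD34+ cells (SE 0.151, 1.81-fold), the difference known when the genes were listed. The CD34− libraries entered the same fit and their results were known too, so their values are no independent support. In CD34− cells it was 0.66 (SE 0.146, 1.58-fold) and missed the threshold in edgeR (adjusted p = 0.0666), while it passed with the mouse as a replicate block (0.67, adjusted p = 0.0328) and in DESeq2 (0.66, adjusted p = 0.0024). The adjusted p ran from 0.0024 to 0.312 over all alternatives. The interaction was 0.19 (SE 0.209; 95% interval -0.26 to 0.64; adjusted p = 1.0), so the rise was not shown to differ between the fractions. Among the differentiated keratinocyte genes 0 of 7 were called for N1-AcSpd in either fraction, and some, though not all, were higher alongside Igfbp3. Ivl, which encodes the cornified envelope protein involucrin, was at 26.5 to 37.3 CPM in untreated and 38.9 to 60.3 CPM in N1-AcSpd CD34− libraries, and at 8.59 to 10.3 CPM and 13.2 to 16.9 CPM in CD34+ libraries. It was thus higher in 4 of 4 mice with libraries apart in both fractions (1.51-fold and 1.52-fold; edgeR, adjusted p = 0.0686 and 0.0908). In CD34− cells Sbsn was 1.28-fold higher with libraries apart (adjusted p = 0.0778) and Lor 1.48-fold higher with overlap (adjusted p = 0.361), both in 4 of 4 mice. For Krt1, Krt10, Flg and Krtdap, the others of the list, treated and untreated libraries overlapped in both fractions. Their log2 fold changes ran from -0.0107 to 0.108 in CD34− cells and from -0.0439 to 0.412 in CD34+ cells. Of all tested genes, 9.05% in CD34− and 6.81% in CD34+ cells had treated and untreated libraries apart. Of 10 bulge and sorting genes, 1 was called for N1-AcSpd in CD34− cells, Nfatc1, and 0 in CD34+ cells. Beside this stand 0.614% and 0.325% of all tested genes. Nfatc1 was 1.28-fold lower in treated CD34− cells, in 4 of 4 mice and with libraries apart (edgeR, adjusted p = 0.048). The part of the differentiated keratinocyte genes and the bulge genes in the Igfbp3 difference was not tested.

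**Figure D3:**
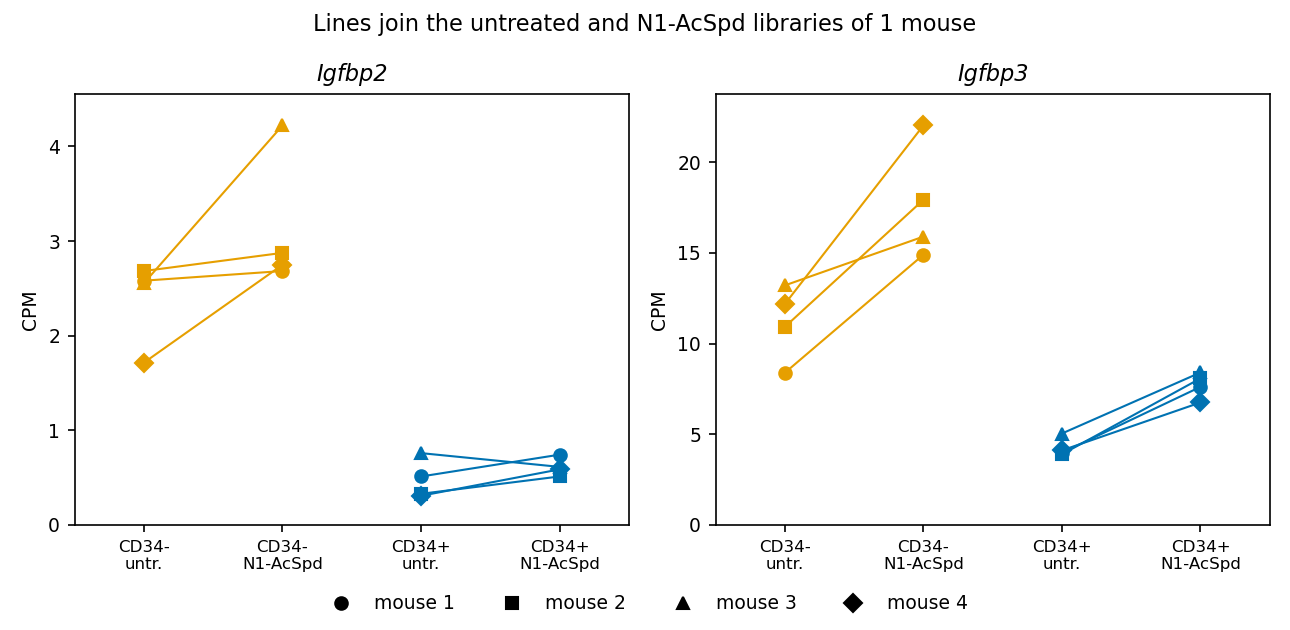
Igfbp2 and Igfbp3 in CPM (y axis) in untreated and N1-AcSpd libraries of CD34− and CD34+ cells (x axis), each line joining the 2 libraries of 1 mouse. All 8 Igfbp3 lines go up, those of CD34− cells from 8.39 to 13.2 CPM up to 14.9 to 22.0 CPM, while the Igfbp2 lines rise in 7 of 8 cases and the treated and untreated values overlap.

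Igfbp2 was higher after N1-AcSpd in 4 of 4 mice in CD34− cells and in 3 of 4 in CD34+ cells, but the libraries overlapped and neither difference passed (log2 fold changes of 0.40, SE 0.243, and 0.37, SE 0.280; edgeR, adjusted p = 0.52 and 0.651). Its 95% intervals reached from -0.13 to 0.92 and from -0.23 to 0.97. Irs1 was lower after N1-AcSpd in each mouse in CD34+ cells, with libraries apart (0.384 to 0.488 CPM untreated, 0.123 to 0.297 CPM treated), with a fitted log2 difference of -0.94 (SE 0.625; adjusted p = 0.58) and with the doubt about Gm9747 given above. In CD34− cells it was lower in 3 of 4 mice, with overlap, at -1.10 (SE 0.657; edgeR, adjusted p = 0.503), the largest fitted N1-AcSpd difference in size among the 9 genes. Igfbp4 had intervals of -0.50 to 0.49 in CD34− and -0.46 to 0.51 in CD34+ cells, Igf1r of -0.34 to 0.04 and -0.21 to 0.18, and Igf2r of -0.29 to 0.20 and -0.20 to 0.30. Igfbp6, Igfbp7 and Irs2 did not pass in either fraction, with log2 fold changes from -0.22 to 0.49.

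For N1-AcSpd, 0 of the 9 genes were called in CD34− cells and 1, Igfbp3, in CD34+ cells, where 0.614% and 0.325% of all tested genes were called. Those shares rest on 117 and 62 genes, which became 4 to 161 and 3 to 85 when 1 library or mouse was left out. At an unadjusted p under 0.05 there was 1 gene in each fraction, Igfbp3 in both. DESeq2 called 1 gene, Igfbp3, in CD34− cells and none in CD34+ cells, where it gave Igfbp3 no adjusted p. These Igfbp3 results were known when the genes were listed, so its calls and passing fits are descriptions and no independent support. In CD34+ cells Igfbp3 passed the threshold in 9 of the 20 fits that left out a library or a mouse, and in none of those that left out a whole mouse; it missed it (adjusted p = 0.0571) when the 8 compared libraries were fitted alone. Treated and untreated libraries did not overlap for 1 of the 9 genes in CD34− cells (Igfbp3) and for 2 in CD34+ cells (Igfbp3 and Irs1), against 9.05% and 6.81% of all tested genes. No interaction was called among the 9 genes, with 0.0% over all tested genes (799 had an unadjusted p under 0.05, 0 of the 9 among them); DESeq2 called 71 genes, 0 of the 9 among them.

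How the genes varied together mostly followed the groups, which differ in both fraction and treatment. Over the 16 libraries, 7 of the 36 pairs had a Pearson correlation of log2 CPM above 0.5 and 12 below -0.5. The highest was 0.864 for Igfbp2 with Igfbp3. The lowest was -0.781 for Igfbp3 with Irs1, whose low counts carry the doubt about Gm9747. After each group's mean was taken off, none was above 0.5 and 2 were below -0.5, Igfbp3 with Irs2 (-0.617) and Igfbp2 with Igf1r (-0.582), and Igfbp2 with Igfbp3 was at -0.0966. The libraries share fraction, mouse and depth, so these values are descriptions. Among genes whose mean count reached 50, the levels most like those of Igfbp3 were those of Hmga1 and its near-identical copy Hmga1b (both 0.973), which the counting may not separate, and Ikbkg (0.971). For Igfbp7 they were Cdca8 (0.916), H2afz (0.904) and Itpr3 (0.902), for Igf1r Ldb1 (0.866), Sh3pxd2b (0.860) and Gpcpd1 (0.856), for Igf2r Fgf22 (0.887), Rnf126 (0.868) and Mfhas1 (0.823), and for Irs2 Dhx38 (0.765), Jun (0.690) and Sqstm1 (0.688).

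The ligands were scarce in these sorted epithelial cells. Igf2 had 4 UMIs, all in the untreated CD34+ library of mouse 3. Igf1 had 65 UMIs in N1-AcSpd CD34+ cells, 26, 24 and 15 of them in mice 2, 3 and 4 and 0 in mouse 1. Its untreated CD34− cells had 15 UMIs, all in mouse 4, its N1-AcSpd CD34− cells had 1, and its untreated CD34+ cells had 0. The edgeR test called Igf1 between fractions under N1-AcSpd (adjusted p = 0.0321) and DESeq2 did not, and with libraries at 0 beside libraries of 15 to 26 UMIs in 1 group no fold is given.

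Of a list of 55 further IGF pathway genes, 47 were in the table and 37 were tested. Between fractions 13 were called in untreated cells, 10 higher and 3 lower in CD34+ cells, and 11 under N1-AcSpd, 8 higher and 3 lower. These are 35.1% and 29.7% of the tested list, beside 32.1% and 33.3% of all tested genes.

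Among the signalling genes, 7 of 20 were called higher in untreated CD34+ cells and 4 of 20 under N1-AcSpd, and 0 were called lower. Beside these, 32.1% and 33.3% of all tested genes were called in either direction. Over all genes, the balance of higher and lower calls depended on the scaling, with 73.4% and 71.6% higher under unscaled library totals. Whether signalling genes were called more often than other genes, or more often higher, was not tested. Pik3r1, the regulatory p85α subunit of PI3K that docks on IRS proteins, differed most, at 3.21 to 5.49 CPM in untreated CD34− and 14.4 to 18.3 CPM in untreated CD34+ libraries. It was at 2.47 to 3.44 CPM and 11.2 to 15.2 CPM under N1-AcSpd, so that CD34+ cells held 3.96-fold and 4.37-fold more (log2 fold changes of 1.99, SE 0.161, and 2.13, SE 0.163; edgeR, adjusted p = 1.25e-06 and 6.47e-07). Pik3r2, the related p85β gene, was 1.35-fold and 1.44-fold higher (adjusted p = 0.00281 and 0.000607). The transcription factor gene Foxo1, which AKT restrains, was 1.41-fold higher in untreated CD34+ cells (adjusted p = 0.00158), and its log2 fold change under N1-AcSpd was -0.06 (adjusted p = 0.698), with an interaction of -0.56 (adjusted p = 1.0). Tsc2, a brake on mTOR, was 1.23-fold higher in untreated CD34+ cells (adjusted p = 0.0116), and the S6 kinase gene Rps6kb1 1.15-fold higher under N1-AcSpd (adjusted p = 0.0431). Pik3r1, Pik3r2 and Foxo1 kept these calls in all 20 fits that left out a library or a mouse and in the 7 other alternatives. Tsc2 lost its call without mouse 2 (0.0572), mouse 3 (0.0519) or the untreated CD34+ library of the latter (0.0541) and with the compared groups alone (0.0561), and Rps6kb1 lost it in 11 of the 20 fits, among them those without mouse 2 (0.332), 3 (0.162) or 4 (0.136), with the mouse as a block (0.064) and in DESeq2 (0.064). Akt2 and Tsc1, also called in untreated cells, fell outside the naming rule and were chosen after their values were seen.

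Of 4 tested genes for proteases and their inhibitors, 1 was called: Adamts1, a metalloprotease, was at 16.9 to 20.03 CPM in untreated CD34− and 8.31 to 12.6 CPM in untreated CD34+ libraries and 1.91-fold lower in CD34+ cells with and without N1-AcSpd (edgeR, adjusted p = 6.37e-05 and 5.06e-05). The pappalysin genes Pappa and Pappa2 were not tested, with 1 to 6 UMIs in a group for Pappa and 0 to 38 for Pappa2. Both tested carriers and further binding proteins, Igfals (20 to 55 UMIs in a group; 2.47-fold and 2.88-fold higher in CD34+ cells) and Kazald1 (19 to 57 UMIs; 3.30-fold and 2.45-fold higher), were called in both states, as was Ccn2 of the CCN family (1.79-fold and 1.92-fold higher). Of the 3 Igf2 mRNA-binding proteins, Igf2bp1 (1.94-fold and 2.71-fold) and Igf2bp2 (1.12-fold and 1.17-fold) were lower in CD34+ cells. Igfals, Kazald1, Ccn2 and Igf2bp1 have mean counts under 50 and were named after their values were seen. Without any 1 of the mice, the untreated call of Igfals was lost (adjusted p of 0.0502 to 0.0982), as was the N1-AcSpd call of Kazald1 (0.0526 to 0.279), and with unscaled library totals that of Igf2bp2 in untreated cells (0.296). Of the 5 tested receptors and adaptors 0 were called by edgeR or DESeq2 (0 and 2 had an unadjusted p under 0.05), the insulin receptor gene Insr being at log2 fold changes of 0.37 (adjusted p = 0.184) and 0.54 (adjusted p = 0.0513). For N1-AcSpd 1 gene of the list was called in CD34− cells, the lysosomal protease gene Ctsd, which was 1.18-fold higher (464.6 to 492.9 CPM against 393.6 to 424.6 CPM; edgeR, adjusted p = 0.0338) but lost its call without any 1 of the mice (0.143 to 0.196). In CD34+ cells 0 of the 37 were called, 6 had an unadjusted p under 0.05 and DESeq2 called 1. Ctsd was 1.13-fold higher in treated CD34+ cells in 4 of 4 mice, with overlap (edgeR, adjusted p = 0.104). Its interaction was -0.0572 (SE 0.0599), so its rise was not shown to differ between the fractions.

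**Figure D4:**
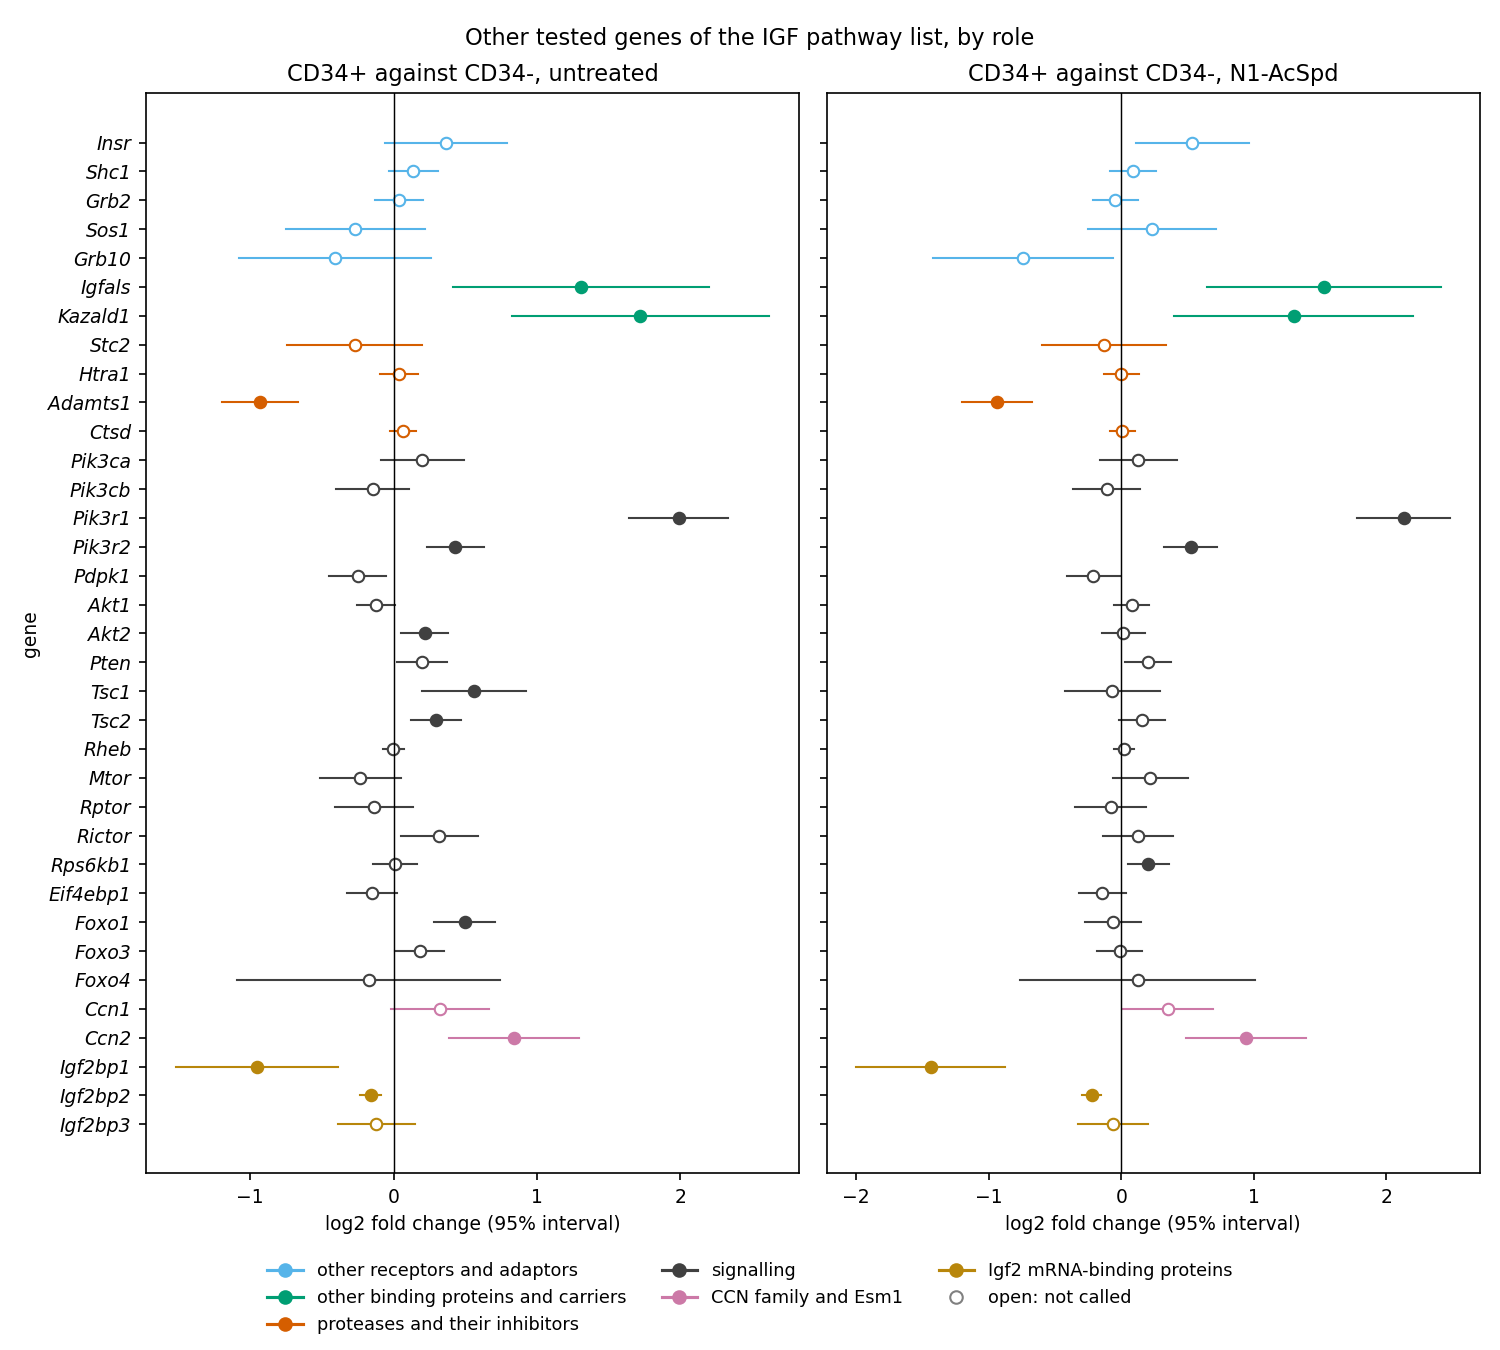
Fitted log2 fold changes between CD34+ and CD34− cells (x axis, with 95% intervals) for 35 of the 37 tested genes of the pathway list (y axis, coloured by role; Igf1 and 1 gene not reported here are left out), in untreated cells on the left and under N1-AcSpd on the right; filled points have an adjusted p under 0.05. Pik3r1 lies farthest to the CD34+ side in both panels, and Adamts1, Igf2bp1 and Igf2bp2 are the filled points on the CD34− side.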

How the data were processed

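The 4 groups of 4 libraries came from the labels, whose mouse entry ties a replicate number to 1 animal in all groups. The deposited values are raw counts of unique UMI tags per gene. The authors separated reads with FLEXBAR, pseudo-aligned the second read to mm10 with Kallisto (0.45.0 in the submitters' processing notes, which also name FastQC 0.11.7 and DESeq2), assigned tags with BEDTools and counted them in R; the annotation release is not given in the sources used here. The 156050 empty cells were read as 0. Symbols and positions came from GENCODE M21 (GRCm38), where 94 of 32989 identifiers were absent (0.125% of counts).

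Genes whose mean count reached 5 were tested in edgeR 4.0.16 (R 4.3.3) with TMM scaling, 1 mean per group over all 16 libraries, quasi-likelihood tests and Benjamini-Hochberg adjustment over all tested genes, called at 0.05. SE was computed as |log2 fold change|/√F. CPM use TMM-scaled totals, log2 CPM adds 1, and limits for a count of 0 (3 counts over the group) cover counting error only. Alternatives were DESeq2 1.42.0, other scalings and filters, the mouse as a block, the compared groups alone, and leaving out each library and mouse. The code was tested on simulated data.

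The numbers pair the samples because they name animals; deviations of same-mouse libraries from group means correlated at -0.0988 to 0.139 (24 pairs, mean 0.0285). No replicate pair of a group agreed within sampling noise (chi-square per degree of freedom of at least 25.2). The genes and lists were chosen with earlier results of these data known. All 10 genes were given values; from the pathway list, up to 6 called genes per comparison whose mean count reached 50 were named by the size of the difference, with the ligands (1 gene of the list is counted but not reported here), and for each of the 10 genes with such a mean the 3 genes of highest correlation.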

Additional observations from a re-analysis of the deposited data

Results flagged for a closer look

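In 3 of the 36 groups of 4 libraries (9 genes in 4 groups), 1 library stood apart from the other 3 of its group by Dixon's test; chance alone gives about 1 in 20. Igfbp2 was at 1.71 CPM in the untreated CD34− library of mouse 4, with the others at 2.56 to 2.68 CPM. Igfbp2 was at 4.22 CPM in the N1-AcSpd CD34− library of mouse 3, with the others at 2.68 to 2.88 CPM. Irs1 was at 0.13 CPM, or 3 UMIs, in the untreated CD34− library of mouse 3, with the others at 0.256 to 0.271 CPM.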

How the results depend on the processing

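Of 1196 recomputed differences of the 9 genes, 1086 kept direction and side of the threshold, 31 lost and 14 gained a call, and 65 changed sign, in each case for a difference that had not passed. With the replicate block, 1 of the 9 genes (Igfbp3) was called for N1-AcSpd in CD34− cells, as in DESeq2, against 0; the pathway list gave 2 and 1 calls for N1-AcSpd in CD34− and CD34+ cells against 1 and 0. Beside the calls given with the results above, the block changed no other call of the 9 genes. In CD34+ cells the compared groups alone and DESeq2 called 0 of the 9 against 1 (DESeq2 gave Igfbp3 no adjusted p), and DESeq2 called 1 of the pathway list against 0. In CD34− cells the list gave 0 calls without a filter on low counts or with the compared groups alone. Unscaled library totals gave 18 list calls under N1-AcSpd against 11 and moved the median log2 fold change of all genes between fractions to 0.14 and 0.11 and turned 3059 calls higher and 3064 lower in CD34+ cells into 73.4% higher in untreated cells, and 49.6% higher into 71.6% under N1-AcSpd; for the N1-AcSpd effect in CD34+ cells the share of calls that were higher was 58.1%, 70.7% with DESeq2 size factors and 77.0% in DESeq2. Leaving out 1 library or mouse gave 2 to 5 and 3 to 6 called among the 9 between fractions (untreated, N1-AcSpd) and 0 to 1 for N1-AcSpd in CD34+ cells, and 9 to 14, 7 to 13 and, for N1-AcSpd in CD34− cells, 0 to 1 of the list. Over all genes, 117 were called for N1-AcSpd in CD34− and 62 in CD34+ cells, against 35 and 35 without a filter, 351 and 152 with the block, 0 and 3 with the compared groups alone, 558 and 431 in DESeq2, and 4 to 161 and 3 to 85 with 1 library or mouse left out (lowest without mouse 4).

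Sign changes outside the fits with libraries left out were the interaction of Igfbp2 (0.0285 with the block, 0.00455 in DESeq2), the N1-AcSpd effect on Igfbp4 in CD34− cells (0.00332 with library totals, 0.00921 in DESeq2) and on Igf1r in CD34+ cells (0.00114 with DESeq2 size factors), and the untreated fraction difference of Irs2 (0.114 with library totals). With libraries or mice left out, log2 fold changes crossed 0 for the N1-AcSpd effect in CD34− cells of Igfbp4 (-0.166 to 0.119), Igfbp7 (-0.392 to 0.0103) and Igf2r (-0.107 to 0.0387), for that in CD34+ cells of Igfbp4 (-0.102 to 0.174), Igfbp6 (-0.128 to 0.439), Igf1r (-0.119 to 0.0501) and Igf2r (-0.0918 to 0.154), for Irs2 between fractions (-0.128 to 0.18 untreated, -0.0937 to 0.232 under N1-AcSpd), and for the interactions of Igfbp2 (-0.21 to 0.43), Igfbp4 (-0.0916 to 0.193), Igfbp6 (-0.968 to 0.0068), Igf2r (-0.0632 to 0.253), Irs1 (-0.456 to 1.4) and Irs2 (-0.0652 to 0.198). The cause was not tested. Depth limits Igfbp5, Igfbp6 and Irs1, with at most 12 UMIs in a library.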
